A study of Mus musculus with 8 samples.

Results

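Cholangiocytes, the epithelial cells that line the bile ducts, were looked for among stromal cells sorted from mouse liver and sequenced one cell at a time. A cell was counted as a member when at least 3 of 7 biliary genes (Epcam, Krt19, Krt7, Sox9, Spp1, Cldn7 and Tm4sf4) had 1 or more unique molecular identifiers (UMIs, counts of captured transcripts). Of 3192 cells kept, 110 met this gate, which is 3.45% of them. These gated cells were thus chosen by their own counts of the 7 genes, so the levels of those genes and the contrast with other cells are descriptions and not findings. The libraries came from 8 male C57Bl/6 mice that were 6 to 8 weeks old when obtained, with 1 library per mouse. For 20 to 32 weeks, 4 control mice received chow and 4 mice received the HFHC diet, which the series text calls high fat and high cholesterol and the sample titles high fat and high calorie. Non-parenchymal liver cells were freed of dead cells and sorted to enrich endothelium with antibodies to CD45, CD31, CD146 and PDPN, before 10x Genomics droplet sequencing. No genotype or transgene is given for either group.

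Cholangiocytes modify bile as it leaves the liver, by secreting bicarbonate and water and by taking up bile acids and glucose. They are a polarised epithelium with keratins, tight junctions and a primary cilium that faces the duct lumen, and their identity depends on transcription factors such as Sox9 and on Notch signals. In injured liver they proliferate and form new ductules, secrete chemokines and can show antigen presentation genes.

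The kept libraries held 47 to 875 cells, and the median UMI count was 5343.5 in gated cells and 1629 in other cells. Any 2 of control 1, control 2 and HFHC 1 to 3 had between 33 and 65 barcodes in common, against at most 4 in any other pair, and only the copy with most UMIs was kept. Of the gated cells, 62 had such a copy in another library, namely all 6 of control 1, 24 of HFHC 1, 31 of HFHC 2 and 1 of HFHC 3. The copies held a median of 33.9% of the UMIs of the kept cell in control 1, 7.19% in HFHC 1 and 11.4% in HFHC 2. Xist, the RNA that coats the inactive X chromosome of females, was found in 67 of 94 cells of control 4, 4 of its 4 gated cells among them, and in no cell of the other libraries, although control 4 is labelled male. The shares and the counts of genes that differed from other cells are therefore also given within and outside the 5 libraries that share barcodes, and without control 4. Between diets, genes could be compared within those 5 and without control 4, but not outside the 5, because HFHC 4 had no gated cell.

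Gated cells were most of the cells in 2 HFHC libraries and few of the cells elsewhere. Among controls, library 1 held 6 of 55 cells (10.9%, Wilson 95% interval 5.10 to 21.8), library 2 held 4 of 875 (0.457%, 0.178 to 1.17), library 3 held 3 of 574 (0.523%, 0.178 to 1.53) and library 4 held 4 of 94 (4.26%, 1.67 to 10.4). Among HFHC libraries, library 1 held 31 of 47 cells (66.0%, 51.7 to 77.8), library 2 held 58 of 74 (78.4%, 67.7 to 86.2), library 3 held 4 of 857 (0.467%, 0.182 to 1.19) and library 4 held 0 of 616, which allows a share of up to 0.487%. Thus 89 of the 110 gated cells (80.9%) came from HFHC 1 and HFHC 2, and the diets overlapped because HFHC 3 and HFHC 4 lay at or under the lowest control libraries.

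The share of gated cells was 4.04% ± 4.91 in controls and 36.2% ± 41.8 in HFHC mice (SD, n = 4 each), a difference of 32.2 percentage points that was within the spread between mice (two-sided exact permutation test, p = 0.4; the smallest p this design allows is 0.0286). Within the 5 libraries that share barcodes the difference was 42.6 points (exact p = 0.3, smallest possible 0.1), and within control 3, control 4 and HFHC 4 it turned to -2.39 points (exact p = 0.667, smallest possible 0.333). Without control 4 it was 32.2 points (exact p = 0.4). The sort and the depth can set such shares. When each cell was thinned to 1000 UMIs, which left out 15, 319, 177 and 14 control cells and 5, 16, 119 and 170 HFHC cells in library order, HFHC 1 held 35.7% gated cells, HFHC 2 held 60.3%, and the difference was 19.7 points (exact p = 0.429).

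**Figure D1:**
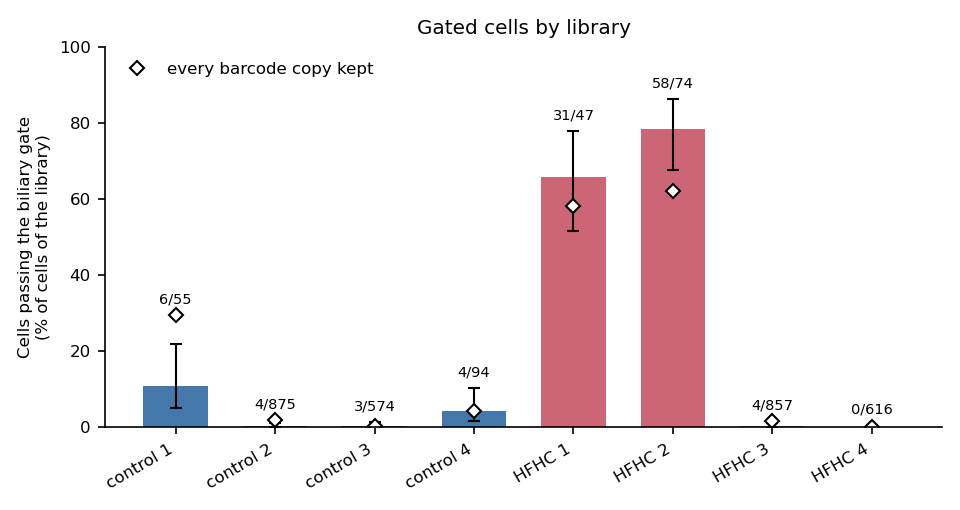
Percent of the cells of each library that passed the biliary gate (y axis), for 4 control and 4 HFHC libraries; bars are the kept cells with Wilson 95% intervals, labels give gated over all cells, and diamonds show the percent with every barcode copy kept. HFHC 1 (66.0%) and HFHC 2 (78.4%) stand far above the other libraries, and control 1 moves from 10.9% to 29.5% when copies are kept.

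Osteopontin led the gate. Spp1 (chromosome 5, 104435118 to 104441050 in mm10), which encodes this secreted phosphoprotein, was detected in all gated cells but 1, in HFHC 1. Summed over the gated cells of each library, Spp1 reached 7531, 21457, 27298 and 7818 counts per 1000000 (CPM) in the 4 control libraries, in order, and 7319, 17190 and 21879 CPM in HFHC 1 to 3. Control 2, control 3, HFHC 2 and HFHC 3 were thus high and the other 3 libraries low, with both diets on either side. In the other cells Spp1 was at 12.5 to 29.3 CPM in the controls and HFHC 3, but at 525 CPM in HFHC 1 and 2191 CPM in HFHC 2, the libraries with the most gated cells.

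The surface and junction genes of the gate were present in every library. Epcam, an epithelial adhesion molecule, was at 709, 832, 1371 and 556 CPM in control gated cells and at 488, 968 and 1450 CPM in HFHC gated cells. Tm4sf4, a tetraspanin-like membrane protein, ran from 871 CPM in HFHC 1 to 3874 CPM in control 3, and Cldn7, a tight junction claudin, from 266 CPM in control 1 to 806 CPM in HFHC 3. For these 3 genes the libraries of the 2 diets overlapped.

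The keratins of the gate had another order. Krt19, the keratin filament gene most used to mark ducts, was at 1388, 350, 417 and 2778 CPM in controls and at 1293, 1467 and 612 CPM in HFHC libraries, and Krt7 ran from 226 CPM in HFHC 3 to 754 CPM in control 4. Control 2, control 3 and HFHC 3, which were high in Spp1, were the lowest in both keratins. For Krt7 this order was lost without gated cells that had at least 3 mesothelial markers. Krt7 was then at 395 CPM in control 1 and 298 CPM in control 4, under the 417 CPM of control 3. Krt19 kept the order, with 896 CPM in HFHC 1 as the next lowest value. Sox9, the transcription factor of biliary fate, was at 116 to 358 CPM.

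**Figure D2:**
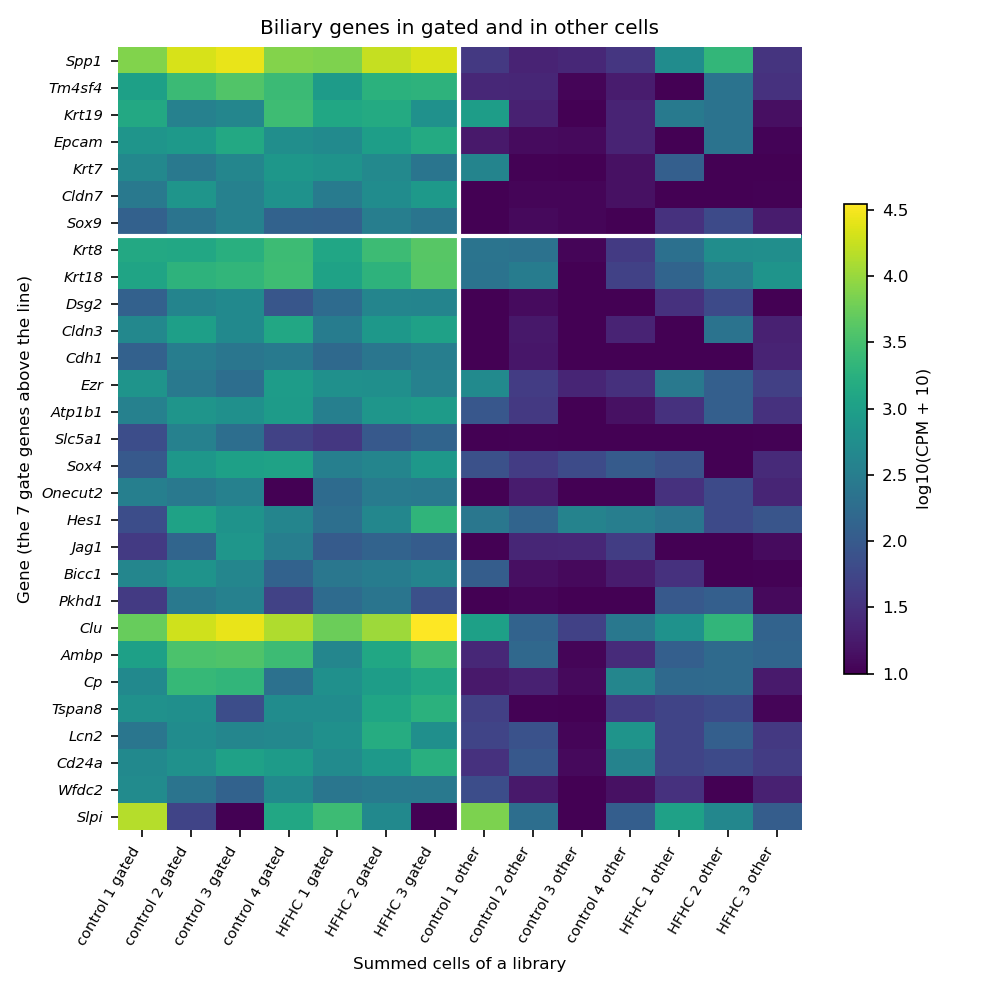
Heat map of log10(CPM + 10) for the 7 gate genes (above the line) and other biliary genes in the summed gated cells (left) and other cells (right) of 7 libraries. Spp1 and Krt19 order the libraries differently, and Slpi is bright in control 1 gated cells (14177 CPM) and dark in those of control 3 and HFHC 3 (0 CPM).

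Gated cells ranged from cells with all 7 genes to cells that barely passed. All 7 genes were detected in 42 cells, of which the control libraries held 3, 2, 1 and 1 and HFHC 1 to 3 held 10, 22 and 3. The median sum of the 7 genes per gated cell was 131 UMIs in control 2, 211 in control 3 and 204.5 in HFHC 3, against 52.5 in control 1, 111.5 in control 4, 46 in HFHC 1 and 53.5 in HFHC 2. In the 74 cells with 5 to 7 gate genes, Spp1 was at 17177 CPM, Cldn3 at 784 CPM and Krt8 at 2635 CPM. In the 36 cells with 3 or 4 gate genes the same genes were at 1110, 65.7 and 388 CPM, and the mesothelial genes Msln and Upk3b were at 997 and 877 CPM, against 222 and 185 CPM in the fuller cells. The 2 keratins of the gate did not follow this split: Krt19 was at 1372 CPM in the 74 cells and 1259 CPM in the 36. Krt7 was at 507 and 579 CPM. The 36 cells thus held less Spp1, Cldn3 and Krt8, with Krt19 and Krt7 near the levels of the 74. These keratins do not set the 36 cells apart from mesothelium. The 30 gated cells with at least 3 mesothelial markers held 1666 CPM of Krt19 and 648 CPM of Krt7. The 80 with fewer held 1102 and 431 CPM. The macrophage gene C1qa was higher in the 36 cells than in the 74, at 1271 and 354 CPM. So were the antigen presentation genes H2-Aa (3211 and 655 CPM) and Cd74 (9407 and 2250 CPM). Of the 21 gated cells outside HFHC 1 and HFHC 2, 18 had at least 5 gate genes.

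The threshold ran through a range of cells with no gap. Just inside it, 21 cells had exactly 3 gate genes, with Spp1 in 20, Krt19 in 16, Krt7 in 9, Tm4sf4 in 8, Epcam in 5, Sox9 in 3 and Cldn7 in 2. Just outside it, 42 cells had exactly 2, with Krt19 in 23, Spp1 in 22, Krt7 and Tm4sf4 in 13 each, Sox9 in 6, Epcam in 5 and Cldn7 in 2. Their median UMI counts were 1851 inside and 2969.5 outside. At least 3 mesothelial markers were present in 6 of the 21 cells and 13 of the 42, and at least 3 Kupffer cell markers in 10 of the 21 and 9 of the 42. In 10 gated cells Epcam, Cldn7 and Tm4sf4 were all at 0, and these held 816 CPM of Spp1, 1239 CPM of Krt19, 1283 CPM of Msln and 9883 CPM of Slpi.

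Beyond the gate genes, gated cells were set beside the other cells of the same library with the library as a block (edgeR quasi-likelihood test, Benjamini-Hochberg adjustment). The planned minimum of 10 gated cells left only HFHC 1 and HFHC 2, where 162 of 2597 tested genes were called (6.24%), 62 higher (2.39%) and 100 lower (3.85%). That count fell to 6 with at least 4 gate genes, 40 with DESeq2, and 0 both without Spp1 in the gate and without the library block (342 and 408 genes at an unadjusted p under 0.05). A minimum of 3, chosen after seeing the data, used 7 libraries, where 86 of 1226 genes were called (7.01%), 51 higher (4.16%) and 35 lower (2.85%). Of the called genes, 50 were higher in 7 of 7 libraries and 23 were lower in 7 of 7. The gate defines this contrast, so nothing is read from these counts, and the folds that follow describe how far the gated cells stood from their neighbours. Unless stated, these folds are over 7 libraries. Over HFHC 1 and HFHC 2 the log2 folds were lower for Clu (2.66), Cldn3 (2.79), Atp1b1 (3.18) and Krt8 (2.45). The log2 fold was higher there for Lcn2 (3.75). For Cdh1 it was 7.78, but other cells held 0 UMIs, so its size is not measured. With 3 counts over both libraries as the floor, Cdh1 was at least 4.20-fold higher. Its fold there cannot be ranked against that over 7 libraries. Genes called in both fits numbered 43, all in the same direction, which is 26.5% of the calls from 2 libraries and 50% of those from 7. The 7 libraries include HFHC 1 and HFHC 2, so the fits share data and the common direction is no support. The count over 7 libraries was 93 within the barcode-sharing libraries, 171 outside them (control 3 and control 4 only), 81 without control 4, 45 without control 2, 56 without HFHC 1 and 3 with barcodes found in 1 library only. Outside the barcode-sharing libraries, Clu, Aqp1, Cd24a, Lcn2, Tnfrsf12a and Cfb were not called, Lyz2 turned to a log2 fold of 0.82, and Sftpd, Cdh1, Bicc1 and Dcdc2a were too low to be tested.

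Genes of an epithelial sheet were among the highest folds. Cldn3 (chromosome 5, 134986214 to 134987472), a tight junction claudin, was at 443, 1007, 477 and 1349 CPM in control gated cells and at 294, 767 and 1063 CPM in HFHC gated cells, against 0 to 214 CPM in other cells (log2 fold 6.30, SE 0.81, 7 libraries). Cdh1 (chromosome 8, 106603351 to 106670246), the epithelial cadherin, was at 118 to 322 CPM in gated cells and at most 12.7 CPM in other cells (log2 fold 5.73, SE 0.69). Of 18 genes of junctions and polarity, 4 were tested, and Cldn3, Cdh1 and Ezr, which links actin to the apical membrane, were called higher. Over all tested genes 4.16% were called higher. The median log2 fold of the 4 was 4.08, against -0.04 over all 1226 genes.

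Simple epithelial keratins were higher too. Krt8 was at 1359, 1314, 1728 and 2699 CPM in controls and at 1242, 2706 and 4221 CPM in HFHC gated cells, with a log2 fold of 3.48 (SE 0.86) over other cells. Its filament partner Krt18 was at 1088 to 4125 CPM, and its log2 fold of 3.52 (SE 0.94) did not pass over 7 libraries (edgeR quasi-likelihood test, adjusted p = 0.0609) but passed over 2 (log2 fold 2.78, SE 0.48). That call was lost with at least 4 gate genes, without Spp1 in the gate and without the library block. The desmosomal cadherin Dsg2 was found in 59 of 110 gated cells and in 0.260% of other cells. Single-gene percents of other cells, here and below, pool all 8 libraries. Those cells also held fewer UMIs each (median 1629 against 5343.5 in gated cells). Over HFHC 1 and HFHC 2, within libraries, Dsg2 was not called (log2 fold 2.83, SE 1.00; edgeR quasi-likelihood test, adjusted p = 0.0665). Krt20 had no UMI in any gated cell.

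Other large folds belonged to genes outside these lists. Dcdc2a, a cilium-associated doublecortin gene, was found in all 7 libraries at 148 to 238 CPM (log2 fold 5.86, SE 1.03), and Pdzk1ip1, which encodes a small membrane protein, at 266 to 1270 CPM (6.42, SE 0.81). Sorbs2, an actin adaptor, was in 74 of 110 gated cells and in 1.98% of other cells (5.44, SE 0.83), and Ddit4l and Tstd1 had log2 folds of 5.67 (SE 1.05) and 4.72 (SE 0.73). Among the 8 named falls, Srgn, a granule proteoglycan, was at 0 to 147 CPM in gated cells and 322 to 1136 CPM in other cells (-3.71, SE 0.52). Other cells of control 3, with Srgn in that range, held 12.2 CPM summed over 6 leukocyte markers. Cd52, Coro1a and Fcer1g, which were also among the falls, are genes of blood cells.

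**Figure D3:**
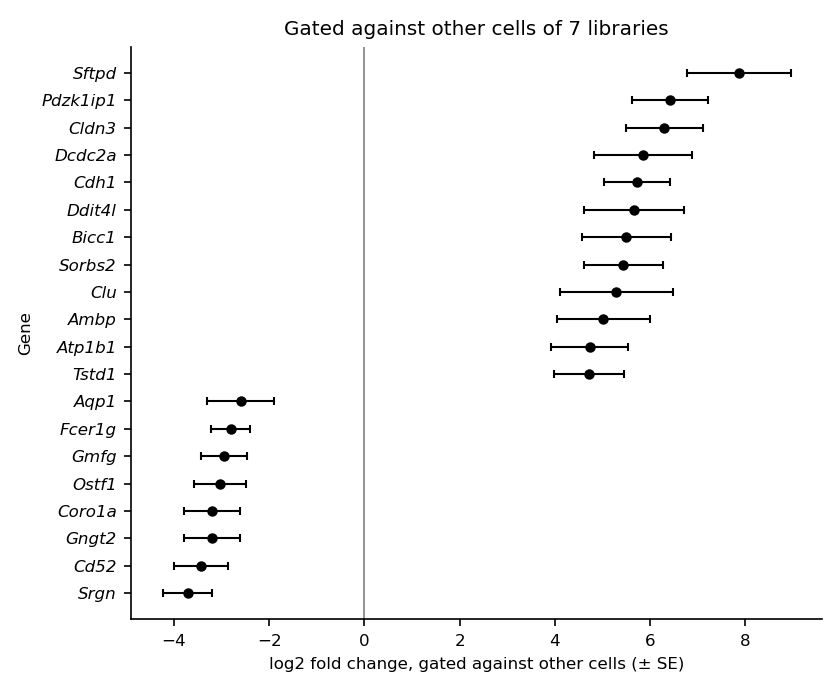
Log2 fold of gated over other cells (x axis) for the 12 largest rises and 8 largest falls named over 7 libraries; bars are 1 SE. The rises run from 4.72 for Tstd1 to 7.87 for Sftpd and the falls from -2.60 for Aqp1 to -3.71 for Srgn.

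Genes of bile modification were sparse. Atp1b1, a subunit of the sodium pump, was at 354, 701, 596 and 873 CPM in controls and at 333, 710 and 870 CPM in HFHC libraries, with a log2 fold of 4.73 (SE 0.81) over other cells. Slc5a1, a sodium glucose cotransporter, was found in all 7 libraries at 27.1 to 350 CPM and in 0.0649% of other cells. Cftr, the chloride channel that drives ductal secretion, had UMIs in control 1 (29.5 CPM), HFHC 1 (50.3 CPM) and HFHC 2 (97.1 CPM) and none in the other 4. Of 20 such genes 17 had a UMI in gated cells, and Slc51a, Slc51b and Slc9a3 had none.

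The water channel gene Aqp1 went the other way. It was at 591, 0, 0 and 357 CPM in control gated cells and at 372, 10.0 and 0 CPM in HFHC gated cells, below the other cells of all 7 libraries (log2 fold -2.60, SE 0.70). The other cells, sorted to enrich endothelium, held 30.7 to 3301 CPM. The 3 libraries with the most Aqp1 in gated cells (control 1, control 4 and HFHC 1) also had the most mesothelial transcripts there, at 16392, 3333 and 4672 CPM summed over 7 markers. The other 4 held 0 to 1232 CPM of them, and HFHC 2, with 3 UMIs of Aqp1, was 1 of these. The part of these transcripts in the Aqp1 values was not tested.

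Transcription factors of biliary fate were detected in part of the cells. Sox4 was at 88.6, 744, 1013 and 1111 CPM in controls and at 325, 399 and 773 CPM in HFHC libraries, higher than in other cells in 7 of 7 libraries. Onecut2 was found in 52 gated cells and in 1.40% of other cells. Over HFHC 1 and HFHC 2, within libraries, Onecut2 was not called (log2 fold 2.59, SE 1.01; edgeR quasi-likelihood test, adjusted p = 0.111). Hes1, a target of Notch, varied from 59.1 CPM in control 1 to 2094 CPM in HFHC 3, and in 2 of 7 libraries it was no higher than in other cells (log2 fold 1.19, SE 0.76). The Notch ligand gene Jag1 was higher in 7 of 7 libraries and reached 715 CPM in control 3.

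Targets of the Hippo pathway effector Yap were present with large differences between mice. Ankrd1 was at 207, 2058, 179 and 0 CPM in controls and at 267, 526 and 226 CPM in HFHC libraries. Control 2, with 4 gated cells, stood apart from the other controls. Cyr61 was at 129 to 599 CPM and higher than in other cells in 6 of 7 libraries (log2 fold 2.85, SE 0.83).

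Of 15 genes of the cilium and polycystins, all had a UMI in gated cells. Bicc1, an RNA-binding protein of the cystic kidney genes, was the 1 tested over 7 libraries. It was at 414, 657, 417 and 119 CPM in controls and at 248, 301 and 387 CPM in HFHC libraries (log2 fold 5.50, SE 0.94). Pkhd1, which encodes fibrocystin, was found in 52 gated cells and in 0.422% of other cells. Over HFHC 1 and HFHC 2, within libraries, Pkhd1 was not called (log2 fold 0.94, SE 0.79; edgeR quasi-likelihood test, adjusted p = 0.663). Kif12, a kinesin gene, was found in 31 gated cells and in none of the other cells.

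Genes of secreted proteins were higher in gated cells, with large differences between libraries. Clu (chromosome 14, 65968483 to 65981547), the extracellular chaperone clusterin, was in 109 of 110 gated cells, at 5198, 19443, 26940 and 13413 CPM in controls and 5566, 10489 and 35252 CPM in HFHC libraries (log2 fold 5.29, SE 1.19). Control 1 and HFHC 1, the lowest in Clu, were low in Spp1 too. Ambp, the precursor of alpha-1-microglobulin and bikunin, ran from 418 CPM in HFHC 1 to 3755 CPM in control 3 (log2 fold 5.02, SE 0.98). Sftpd (chromosome 14, 41172214 to 41185149), a collectin of innate defence, was at 179 to 902 CPM in gated cells and at most 53.4 CPM in other cells, with the highest fold of the genes named over 7 libraries (log2 7.87, SE 1.09). Of 21 mucosal and secreted genes, 8 were tested, and Lcn2, Clu, Wfdc2, Cd24a and Ambp were called higher and the macrophage lysozyme Lyz2 lower. Over all 1226 tested genes 4.16% were called higher and 2.85% lower, in a contrast that the gate defines. Tff2, a trefoil peptide, was found in all 7 libraries and in no other cell, while Tff1 and Tff3 had no UMI.

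Slpi, a secreted protease inhibitor that is also on the mesothelial list, differed widely between libraries. It was at 14177, 43.8, 0 and 1349 CPM in controls and at 2667, 466 and 0 CPM in HFHC libraries. In control 1, 2 of the 6 gated cells had at least 3 mesothelial markers, and these held 22605 CPM of Slpi and 142 CPM of Spp1, against 78.9 CPM of Slpi and 19893 CPM of Spp1 in the other 4.

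Progenitor and reactive genes ranged from no UMI to levels like those of Epcam. Prom1, a membrane glycoprotein of the apical surface, was found in 36 gated cells, in all 7 libraries and in no other cell. Cd24a was at 473, 613, 1073 and 873 CPM in controls and at 499, 797 and 1740 CPM in HFHC libraries (log2 fold 3.98, SE 0.79). Lgr5 and Foxl1 had no UMI. Of 29 genes of the ductular reaction 3 were tested, and Tnfrsf12a, the receptor of the cytokine TWEAK, was called higher (236 to 709 CPM, log2 fold 4.06, SE 0.82). Mki67, a marker of dividing cells, was at 23.2 CPM in HFHC 1 and 6.70 CPM in HFHC 2 and had no UMI in the other 5 libraries. Of 15 acute phase genes 3 were tested, and C3, Cfb and Crp were called higher (log2 folds 2.47, 2.14 and 4.70). Saa1, Saa2 and Saa3 had no UMI. Beside both lists, 4.16% of all 1226 tested genes were called higher.

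Of 14 genes of sterol synthesis and uptake, 8 were highest in control 2, which had 4 gated cells, and 3 in control 3. Control 1, HFHC 2 and HFHC 3 were highest for 1 each. Control 2 and control 3 had the smallest sums of gated cells, 22836 and 16778 UMIs. The same count over all genes was not made, so nothing is read from it. Hmgcs1, the cytosolic HMG-CoA synthase, was at 88.6, 1007, 298 and 39.7 CPM in controls and at 81.3, 104 and 129 CPM in HFHC libraries. Fdps, farnesyl diphosphate synthase, was at 118, 1139, 417 and 0 CPM and at 151, 144 and 322 CPM. HFHC libraries lay within the range of the controls for both genes, and Fdps was the 1 gene of the 14 with enough counts to be tested between diets (log2 difference -1.01, SE 1.01). In the 2-library fit, where the other cells of HFHC 1 and HFHC 2 held 64449 UMIs in all, Fdps had 82 UMIs in gated cells and 0 in other cells, at least 3.16-fold higher when 3 counts over both libraries are taken as the floor. The 9 genes named there with 0 UMIs in other cells had bounds from 2.89-fold (Echs1) to 5.05-fold (Pdpn).

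Transcripts of other cell types were found in most gated cells, and only 13 cells (12 of HFHC 2 and 1 of control 4) lacked 3 markers of every other class. At least 3 of 8 Kupffer cell markers were detected in 29 of 31 gated cells of HFHC 1, in 22 of 58 of HFHC 2, in 1 of 6 of control 1 and in none of the 15 in the other 4 libraries. Summed over the 8 markers, gated cells held 4018 CPM in HFHC 1 and 1976 CPM in HFHC 2, against 207, 0, 0 and 39.7 CPM in the 4 control libraries and 0 CPM in HFHC 3. All 8 markers had a UMI in HFHC 1, 6 in HFHC 2, 3 in control 1, 1 in control 4 and none in the other 3. Other cells of HFHC 1 and HFHC 2 held more, at 16115 and 11594 CPM. C1qa, a complement subunit made by macrophages, was at 0 in the gated cells of all 4 controls and of HFHC 3, and at 863 and 583 CPM in HFHC 1 and HFHC 2.

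Mesothelial and hepatocyte markers had other distributions. At least 3 of 7 mesothelial markers were detected in 19 gated cells of HFHC 1, 8 of HFHC 2, 2 of control 1 and 1 of control 4. At least 3 of 8 hepatocyte markers were detected in 56 gated cells, among them all 11 of control 2, control 3 and HFHC 3. The albumin gene Alb was at 9459, 5483 and 8185 CPM there, while the other cells held 3903 CPM in control 2 and 2173 CPM in HFHC 3 but 43.9 CPM in control 3. Of the genes of the sort antigens, Ptprc, which encodes CD45, had UMIs in gated cells of HFHC 1 (96.8 CPM) and HFHC 2 (114 CPM) only. Pecam1, which encodes CD31, was at 32.2 to 124 CPM. In HFHC 1 and HFHC 2, Pdpn, which encodes PDPN, had 131 UMIs in gated cells and 0 in other cells. Scrublet, run per library, marked 7 gated cells as doublets, all in HFHC 1. The part of mixed droplets and free RNA in these values was not tested.

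**Figure D4:**
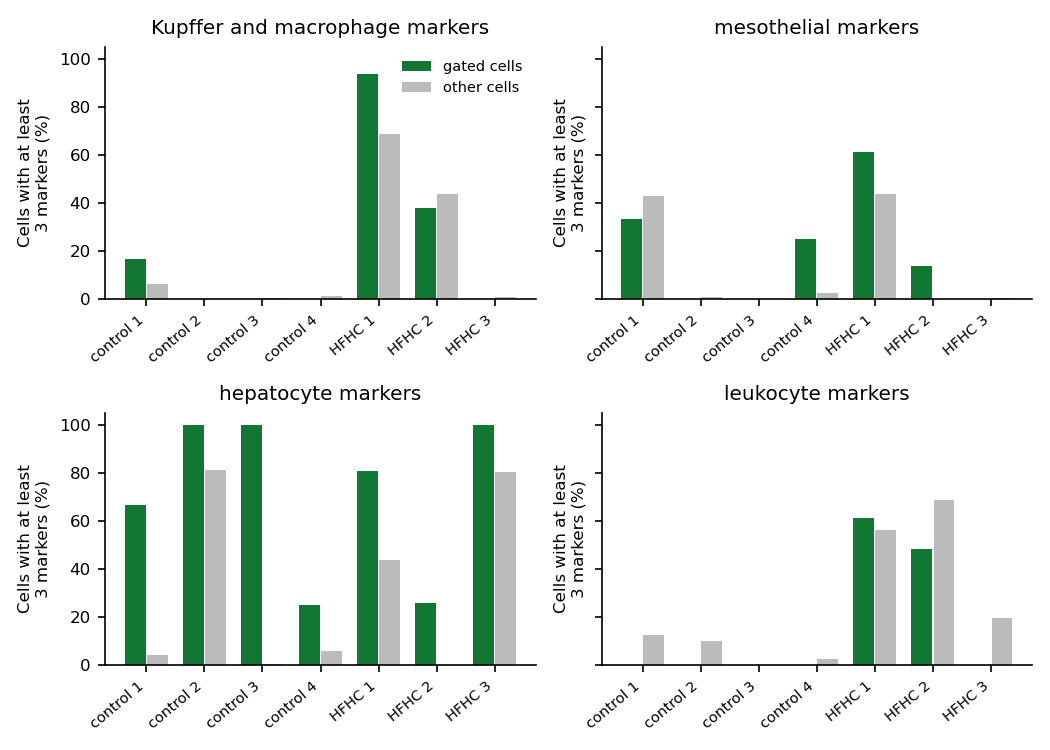
Percent of gated cells (green) and of other cells (grey) with at least 3 detected markers of Kupffer cells, mesothelium, hepatocytes or leukocytes (y axis) in each of 7 libraries. Kupffer markers are frequent in HFHC 1 and HFHC 2 in both kinds of cell, and hepatocyte markers are found in every gated cell of control 2, control 3 and HFHC 3.

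The study's question, what the HFHC diet does, could be asked of the gated cells only with the minimum of 3 cells, since HFHC 1 and HFHC 2 alone had at least 10. With 4 control and 3 HFHC libraries, 0 of 500 tested genes passed (0%; edgeR quasi-likelihood test, Benjamini-Hochberg adjustment), 21 had an unadjusted p under 0.05, and DESeq2 called 1, H2-Aa. In counts summed over cells, fewer expressing cells and less RNA per cell cannot be told apart. The 17 control and 93 HFHC cells are not replicates, and each library counts once.

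The libraries of the 2 diets overlapped for all 7 gate genes. These genes chose the cells, so their levels are a description and no test of the diet is read from them. Spp1 averaged 16026 ± 9934 CPM in controls and 15463 ± 7432 CPM in HFHC mice, and Epcam 867 ± 355 and 969 ± 481 CPM (SD, n = 4 and n = 3). The mean was lower in HFHC for Spp1, Krt19, Krt7 and Tm4sf4 and higher for Epcam, Sox9 and Cldn7. Of biliary genes outside the gate, Clu differed between diets by a log2 of 0.12 (SE 0.71) and Krt8 by 0.73 (SE 0.37; edgeR adjusted p = 0.997 for each). The libraries overlapped for both genes, and for Clu the SE was larger than the difference.

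Class II antigen presentation genes were higher on average in HFHC gated cells, without passing the edgeR test. H2-Aa (chromosome 17, 34282744 to 34287823), the alpha chain of a class II molecule, was at 59.1, 0, 59.6 and 0 CPM in control gated cells and at 1599, 1514 and 322 CPM in HFHC gated cells. All 3 HFHC libraries lay above all 4 controls, by a log2 difference of 5.43 (SE 0.91; edgeR quasi-likelihood test, adjusted p = 0.132; DESeq2, adjusted p = 0.000851). H2-Ab1, its partner chain, was at 148, 43.8, 536 and 0 CPM and at 1823, 1671 and 322 CPM (3.20, SE 1.02; edgeR adjusted p = 0.636). Cd74, the invariant chain that escorts class II molecules, was at 561, 1007, 1073 and 79.4 CPM and at 4602, 4916 and 806 CPM (2.58, SE 0.88; edgeR adjusted p = 0.713). For H2-Ab1 and Cd74, HFHC 3 lay within the controls. Of 15 genes of antigen presentation 7 were tested, 6 higher and 1 lower in HFHC, with a median of 0.69, and 0 passed by edgeR. Over all 500 tested genes the median was 0.03 and 52.6% were higher.

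Macrophage transcripts moved with these genes, and their part in the difference was not tested. The gated cells of HFHC 2 with at least 3 Kupffer markers held 2193 CPM of H2-Aa and 1080 CPM of C1qa, and those without held 868 and 111 CPM. In HFHC 1 the cells with them held 1647 CPM of H2-Aa and those without 227 CPM. Split by gate genes, H2-Aa in HFHC 2 was at 8030 CPM in the 20 gated cells with 3 or 4. It was at 400 CPM in the 38 with 5 to 7. The 5 gated cells of HFHC 2 with Epcam, Cldn7 and Tm4sf4 all at 0 held 10277 CPM of it. In HFHC 1 the 13 cells with 3 or 4 gate genes held 1903 CPM and the 18 with 5 to 7 held 1413 CPM. Other cells of HFHC 1 and HFHC 2 held 2318 and 4648 CPM of H2-Aa, above their gated cells, while other cells of the controls held 710, 533, 4.88 and 17.2 CPM and those of HFHC 3 held 582 CPM. HFHC 3 had no UMI of the 8 Kupffer markers in its 4 gated cells, which held 322 CPM of H2-Aa. Summed over 8 monocyte and dendritic cell markers these 4 cells held 32.2 CPM, with 7 of the 8 at 0, and the other cells of HFHC 3 held 1247 CPM. In the other libraries the sum in gated cells was 0 to 198 CPM in controls and 1076 and 1353 CPM in HFHC 1 and HFHC 2. Without HFHC 3, 8 genes were called higher in HFHC (edgeR quasi-likelihood test), namely H2-Aa, H2-Eb1, C1qa, C1qb, C1qc, Ctss, Lyz2 and Ctsb, of which C1qa, C1qb and C1qc are on the Kupffer list. With cells carrying Kupffer markers left out, HFHC 1 had 2 cells left and dropped out of the fit. Over the other 6 libraries 0 genes passed by edgeR (10 at an unadjusted p under 0.05), and H2-Aa did not pass the filter on low counts. H2-Aa was then at 46.9, 0, 59.6 and 0 CPM in controls and at 868 and 322 CPM in HFHC 2 and HFHC 3, so those libraries did not overlap. Within the barcode-sharing libraries 0 genes passed by edgeR (21 unadjusted), with H2-Aa at 5.16 (SE 1.32; edgeR adjusted p = 0.998), and without control 4 it was 4.98 (SE 0.97; edgeR adjusted p = 0.592).

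Some other genes had no overlap between diets, without passing the test. The HFHC libraries lay above all controls for 5 of 500 genes (1.00%), which were H2-Aa, Cd9, Lcn2, Mt2 and App. A random order of these 7 libraries gives this, in either direction, in 1 of 35 assignments (a share of 0.0286). The 5 genes are thus no more than a random order can give. Genes are not independent, and nothing is read from the counts in either direction. Lcn2, the siderophore-binding lipocalin 2, was at 236, 525, 417 and 437 CPM in controls and at 592, 1537 and 580 CPM in HFHC gated cells (log2 difference 1.40, SE 0.49; edgeR adjusted p = 0.678). Cd9, a tetraspanin, averaged 480 ± 123 and 964 ± 203 CPM (SD; 1.10, SE 0.30; edgeR adjusted p = 0.636). Cd9 is also 1 of 6 markers listed for lipid-associated macrophages, of which at least 3 were detected in 18 of 31 gated cells of HFHC 1, 14 of 58 of HFHC 2 and none of the other 5 libraries. Summed, the 6 markers held 417 to 1122 CPM in control and 1224 to 1530 CPM in HFHC gated cells. In the controls and HFHC 3, 4 of the 6 (Trem2, Gpnmb, Mmp12 and Ms4a7) were at 0, and HFHC 3 held the most Cd9 (1160 CPM). The HFHC libraries lay below all controls for 24 genes (4.80%), of which 10 were among the 82 tested genes of ribosomal proteins and 6 among the 45 of the respiratory chain. Tspan8, a tetraspanin of epithelia, was at 620, 569, 59.6 and 516 CPM in controls and at 523, 1226 and 1837 CPM in HFHC libraries, so the diets overlapped (1.45, SE 0.59; edgeR adjusted p = 0.997).

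**Figure D5:**
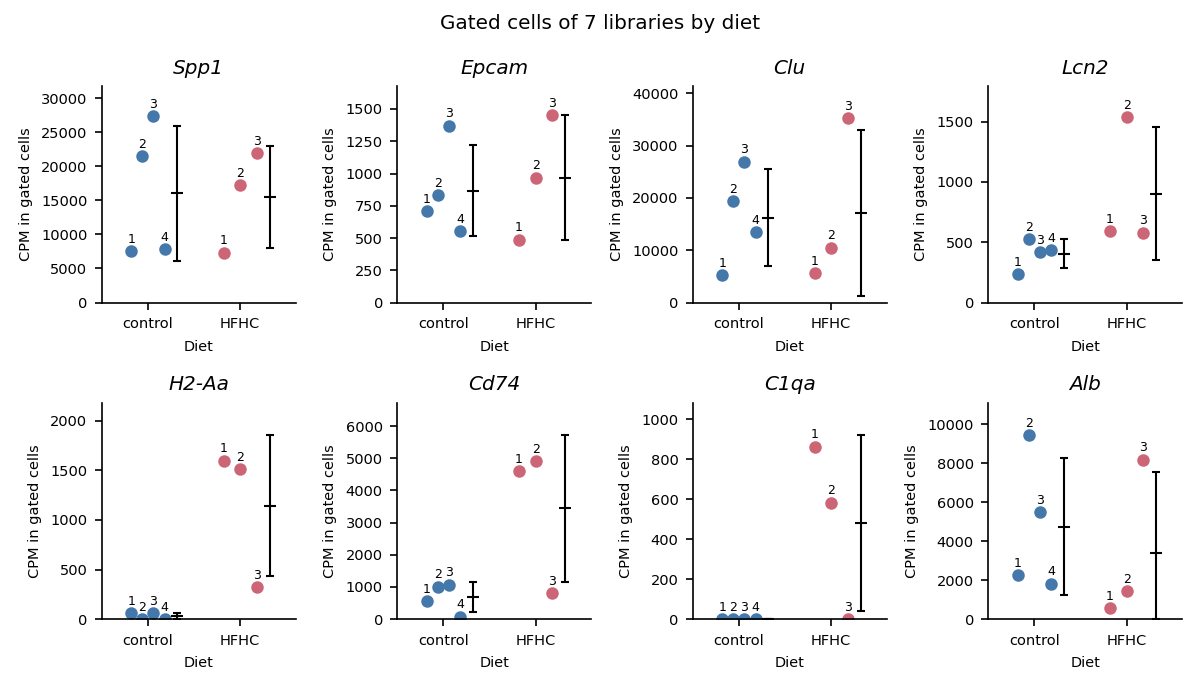
CPM in the gated cells of each library (y axis) by diet for 8 genes; numbers beside points are replicate numbers, and the black mark is the mean with its SD (n = 4 control and n = 3 HFHC; lower bars end at 0). The diets do not overlap for H2-Aa and Lcn2, and they overlap for Spp1, Epcam, Clu and Alb.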

How the data were processed

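Single liver stromal cells of 8 mice were measured as UMI counts. Per the submitters' processing notes, the authors used Cell Ranger 3.0.1 and Seurat with mm10, and they deposited raw counts of 31053 genes in 3416 cells. The counter's annotation release is not given in the sources used here. Of barcodes found in several libraries only the copy with most UMIs was used, so that 3192 cells remained, and cells with at least 3 of 7 genes were gated. Gated cells gave 3 to 58 cells and 16778 to 298603 UMIs in each of 7 libraries, which limits the precision.

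Counts were summed per library and fitted in R 4.3.3 with edgeR 4.0.16, by its robust quasi-likelihood test after TMM scaling and filterByExpr, with Benjamini-Hochberg adjustment over all tested genes and a threshold of 0.05. The library was a block for gated against other cells, where the 7 gate genes were not tested. CPM is per 1000000 UMIs of the summed cells. The SE is derived from the test's F statistic. DESeq2 1.42.0 was an alternative. Shares were tested over all 70 assignments of libraries to diets (two-sided exact permutation, scipy 1.17.1) and carry Wilson 95% intervals. Intervals, and the limit of 3 counts beside a 0, cover counting error only. Positions are those of GENCODE vM21 for mm10, 1-based. Doublets were marked per library with Scrublet in scanpy 1.11.5 and removed only as an alternative. The scripts were tested on simulated data.

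The members and lists were chosen with earlier results of these data known. The rule for names took, per comparison, the 12 largest rises and 8 largest falls among called genes with at least 50 CPM and 1 direction in every library, leaving out mitochondrial, ribosomal, immunoglobulin, haemoglobin, sex-linked, predicted and gate genes. Up to 6 genes of each list, up to 3 markers of each cell type and all gate genes could be named besides. Genes without diet overlap, genes at 0 UMIs and genes called without HFHC 3 were named after their values were seen. Same-numbered control and HFHC libraries are different mice, so the numbers do not pair them. Alternatives changed the gate, barcode copies, depth, doublets, cells with other markers, minimum cells, filter, scaling, tool and block, or left out a library. The minimum of 3 cells, and the fits without cells carrying Kupffer or mesothelial markers, with barcodes of 1 library only or outside the barcode-sharing libraries, were chosen after seeing the data. Some single genes are left out of the text.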

Additional observations from a re-analysis of the deposited data

Results flagged for a closer look

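In 6 of 56 groups of 4 libraries tested, 1 library lay far from the other 3 by Dixon's test at the 95% level. Chance alone marks about 1 in 20. The groups were gene values in gated cells of the controls, and the share of gated cells in each diet. In gated cells, control 1 stood apart for Slpi (14177 CPM) and Vim (1595 CPM). Its Cftr value (29.5 CPM) is 1 UMI beside 0 in the other controls, where any value above 0 would be marked, so nothing is read from it. Control 2 stood apart for Ankrd1 (2058 CPM). Control 4 stood apart for Crp (476 CPM) and for Xist (1151 CPM, which is 29 UMIs, with 0 in the other controls). Among the barcode copies left out of the kept cells, 79 passed the gate, of which 32 were in control 1, 15 in control 2, 12 in HFHC 1, 9 in HFHC 2 and 11 in HFHC 3. With all copies kept, gated cells made up 29.5% of control 1, 58.1% of HFHC 1 and 62.0% of HFHC 2. The cause of these values was not tested.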

How the results depend on the processing

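The share difference between diets (32.2 points) did not pass the threshold in any alternative and was above 0 in all but 1. It was 10.4 to 33.5 points over other gates, copies, filters and thinning, 42.6 points within the barcode-sharing libraries, 18.1 to 44.2 points leaving out 1 library each, and -2.39 points within control 3, control 4 and HFHC 4; the cause of the reversal was not tested. As a replicate block of same-numbered libraries it gave an exact p of 0.5 (smallest possible 0.125). The 162 genes called between gated and other cells in HFHC 1 and HFHC 2 became 6 with at least 4 gate genes, 0 without Spp1 in the gate, 0 without the library block (342 and 408 at an unadjusted p under 0.05), 40 with DESeq2, 53 with no filter on low counts and 86 with a minimum of 3 cells. Among named genes there, 199 of 536 values lost the threshold, and Echs1 reversed to -0.39 with all barcode copies kept. The 86 genes called over 7 libraries became 140 with all copies kept, 3 with barcodes found in 1 library only (277 genes tested and control 1 dropped), 45 without cells carrying Kupffer markers (HFHC 1 dropped), 37 against other cells with none of the 7 genes (463 genes tested, HFHC 1 and HFHC 2 dropped), 171 outside the barcode-sharing libraries (control 3 and control 4, where Lyz2 reversed to 0.82), 157 with DESeq2, 458 with no filter, and 45 to 101 leaving out 1 library each (45 without control 2, 56 without HFHC 1). The 0 genes called between diets became 49 with a minimum of 5 cells (control 1 against HFHC 1 and HFHC 2), 1 with DESeq2, 50 with no filter, and 0 to 8 leaving out 1 library each (8 without HFHC 3). With the replicate block 0 genes passed between diets by edgeR (24 at an unadjusted p under 0.05), and H2-Aa was at 5.02 (edgeR adjusted p = 0.136). Deviations of same-numbered libraries correlated at 0.73, -0.09 and 0.47 across genes, and the numbers were not taken as pairs. Except for fewer tested genes or libraries as stated, the cause of these moves was not tested. Leaving out cells with markers of any other class, and leaving out 1 of the 2 libraries, could not be fitted. Depth limits all gene values: 1 UMI is worth 59.6 CPM in the gated cells of control 3.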
